A study of Homo sapiens with 6 samples.

Results

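Nucleotide and one-carbon metabolism was examined through 42 listed genes, chosen by name for the enzymes that build, recycle and degrade purine and pyrimidine nucleotides and for the folate enzymes that feed them. A row of the same name was found for 41 of the 42 among 35410 genes in the table. The remaining gene, ADSS, has its row under the symbol ADSS2 and is described apart from the counts below. The genes were matched by symbol alone.

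RNA was profiled by MACE-Seq, which reads 1 fragment near the 3′ end of each polyadenylated transcript, so that counts were compared without division by gene length. The cells were SEM, a B cell precursor leukemia line with the KMT2A::AFF1 fusion. SEM::mock carried an empty vector and SEM::EGR3 a vector for overexpression of the transcription factor EGR3, and both were given doxycycline at 1 µg/mL for 48 h to induce the vector. There were 3 biological replicates per line, and the design asks which transcripts differ once EGR3 is induced. Each construct was present in a single established line, so the transgene and any other difference between the lines cannot be told apart. All 6 libraries were labelled as proB cells.

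Purine nucleotides are assembled stepwise on ribose phosphate to give IMP, which is then turned into GMP or AMP, whereas the pyrimidine ring is closed before the ribose is attached. Salvage enzymes return free bases and nucleosides to the nucleotide pool, and ribonucleotide reductase converts ribonucleotides into the precursors of DNA. The folate cycle carries single carbon units from serine into the purine ring and thymidylate, and antifolates and purine analogs used in leukemia treatment act on these enzymes.

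Sequencing depth, as the total over all genes in the table, ran from 5286115 to 15106018 counts per library, with all 3 SEM::EGR3 libraries deeper than the SEM::mock libraries. EGR3 itself was counted 8, 10 and 6 times in SEM::mock and 9768, 4952 and 5557 in SEM::EGR3. The markers of the labelled cell type were largely missing from SEM::mock. In that line 8 of 10 B lineage markers had no library above 3 counts (CD79A, PAX5, EBF1, CD22, IGLL1, VPREB1, DNTT and BLNK), as were HOXA7 and HOXA9 of 7 genes known as KMT2A fusion targets. The summed B lineage level was 1.77 to 4.51 counts per 1000000 (CPM, scaled with TMM factors) in SEM::mock and 494 to 522 CPM in SEM::EGR3, where DNTT and BLNK likewise stayed at or below 3 counts. The fusion targets summed to 59.2 to 69.4 CPM in SEM::mock and 569 to 613 CPM in SEM::EGR3. Erythroid and megakaryocyte markers were abundant in both lines, at 4744 to 5027 CPM and 6089 to 6339 CPM. In SEM::EGR3 4 of the 11 tested were upregulated and 7 downregulated, against 36.5% and 32.0% of all tested genes. HBE1 was at or below 3 counts in all 6 libraries. The myeloid list summed to 134 to 141 CPM and 178 to 179 CPM, with 2 of 3 tested genes higher and 1 lower in SEM::EGR3. Of the 2 higher, PRTN3 (4, 4 and 3 counts against 27, 13 and 18) was tested only through its SEM::EGR3 counts. In the same list CD33 fell from 124 to 48.1 CPM and CEBPA rose from 12.4 to 127 CPM. The T cell list summed to 59.6 to 64.9 CPM and 8.45 to 10.6 CPM, mostly CD3D (58.1 and 6.26 CPM). Of its 3 tested genes CD3D and CD3E were lower, and CD2 was higher (0.06 and 2.27 CPM). CD2 was tested only through its SEM::EGR3 counts and CD3E only through its SEM::mock counts. How much of each difference below goes with this difference in cell identity was not tested, and in such bulk RNA fewer cells of a type and less RNA per cell cannot be told apart.

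PAICS and PPAT, which encode enzymes of purine synthesis, start 126 bp apart on opposite strands of chromosome 4 (GRCh38, GENCODE 29) and were both lower in SEM::EGR3, as given below. A RefSeq window of PAICS therefore overlaps that of PPAT, and a match to the EGR motif letters GCGNGGGCG lies between the starts. This PAICS window is printed here because 1 match belongs to both members. Beside it stand windows of DCTD and NME1, picked as genes with a match that were also lower in SEM::EGR3. HPRT1, which was higher, has a match too and is not printed. Other RefSeq windows of PAICS and DCTD hold no match. Each window runs 5′ to 3′ from 250 bases before to 50 bases after a start of the gene (RefSeq, GRCh38.p14), and the capitals mark the EGR match on either strand.
PAICS, chr4:56435502-56435801, plus strand: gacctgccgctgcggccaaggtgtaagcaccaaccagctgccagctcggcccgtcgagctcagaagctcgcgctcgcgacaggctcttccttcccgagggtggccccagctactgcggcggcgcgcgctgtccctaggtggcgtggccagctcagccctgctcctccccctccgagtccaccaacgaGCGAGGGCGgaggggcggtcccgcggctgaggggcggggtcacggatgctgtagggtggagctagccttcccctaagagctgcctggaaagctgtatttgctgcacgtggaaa
DCTD, chr4:182917337-182917636, minus strand: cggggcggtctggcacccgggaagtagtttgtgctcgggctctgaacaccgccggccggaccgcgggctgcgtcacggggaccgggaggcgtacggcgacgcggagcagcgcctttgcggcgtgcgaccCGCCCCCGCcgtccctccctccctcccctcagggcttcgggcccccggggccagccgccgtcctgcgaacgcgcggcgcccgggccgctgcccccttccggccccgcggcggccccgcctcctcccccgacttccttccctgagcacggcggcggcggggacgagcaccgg
NME1, chr17:51153309-51153608, plus strand: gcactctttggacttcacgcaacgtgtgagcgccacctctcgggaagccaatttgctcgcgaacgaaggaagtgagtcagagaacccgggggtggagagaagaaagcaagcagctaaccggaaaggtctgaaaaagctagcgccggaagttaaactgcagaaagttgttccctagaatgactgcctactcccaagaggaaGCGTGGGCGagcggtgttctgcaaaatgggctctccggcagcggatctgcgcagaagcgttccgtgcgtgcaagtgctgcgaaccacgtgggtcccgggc

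RefSeq windows were matched for 37 of the listed genes, 58 windows in all. IMPDH2, SHMT2, ADSL, GGH and ADSS had no matched window, so their promoters were not searched. The EGR letters occurred in 13.8% of these 58 windows and in 9.43% of all 35093 windows. The 7 members with a match were PAICS, PPAT, DCTD, NME1 and NT5C2, which were lower in SEM::EGR3, HPRT1, which was higher, and NME2, which did not pass the test. Over all tested genes the shares were 32.0% lower and 36.5% higher, and whether direction goes with a match was not tested. The palindromic E-box CACGTG, bound by MYC and USF factors, was present in 19.0% of member windows and 7.26% of all windows. The E2F letters TTTNGCGC were present in 5.17% and 1.79%. The member shares rest on 8 windows for the EGR letters, 11 for the E-box and 3 for the E2F letters. Some windows overlap and hold the same site: those of PAICS and PPAT (EGR and E-box), NME2 (EGR) and MTHFD1L (E-box). The shares therefore do not count separate sites, and their difference from all windows was not tested. Both strands were searched, the EGR letters can overlap GC-rich sites of other zinc finger factors, and the matches are a description of letters only.

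Across the transcriptome 15465 genes were tested with edgeR's quasi-likelihood test, with 36.5% upregulated and 32.0% downregulated in SEM::EGR3 at a Benjamini-Hochberg adjusted p under 0.05. All 41 members had enough counts to be tested, NT5E through its SEM::EGR3 counts alone. Of these 41, 13 were higher, 18 were lower and 10 did not pass. Without NT5E, 12 of 40 were higher. The members called were thus 31.7% higher and 43.9% lower, and the list did not move in a single direction. The median log2 fold change (log2fc, SEM::EGR3 over SEM::mock) was -0.05 over the members and 0.03 over all genes. Changes of at least 1 on the log2 scale were found in 6 members, IMPDH2, ADA, PNP, CTPS2, TK2 and NT5E, against 25.2% of all tested genes, and 5 remain without NT5E. The summed level of the 41 members was 5747 to 5828 CPM in SEM::mock and 5587 to 5624 CPM in SEM::EGR3.

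**Figure D1:**
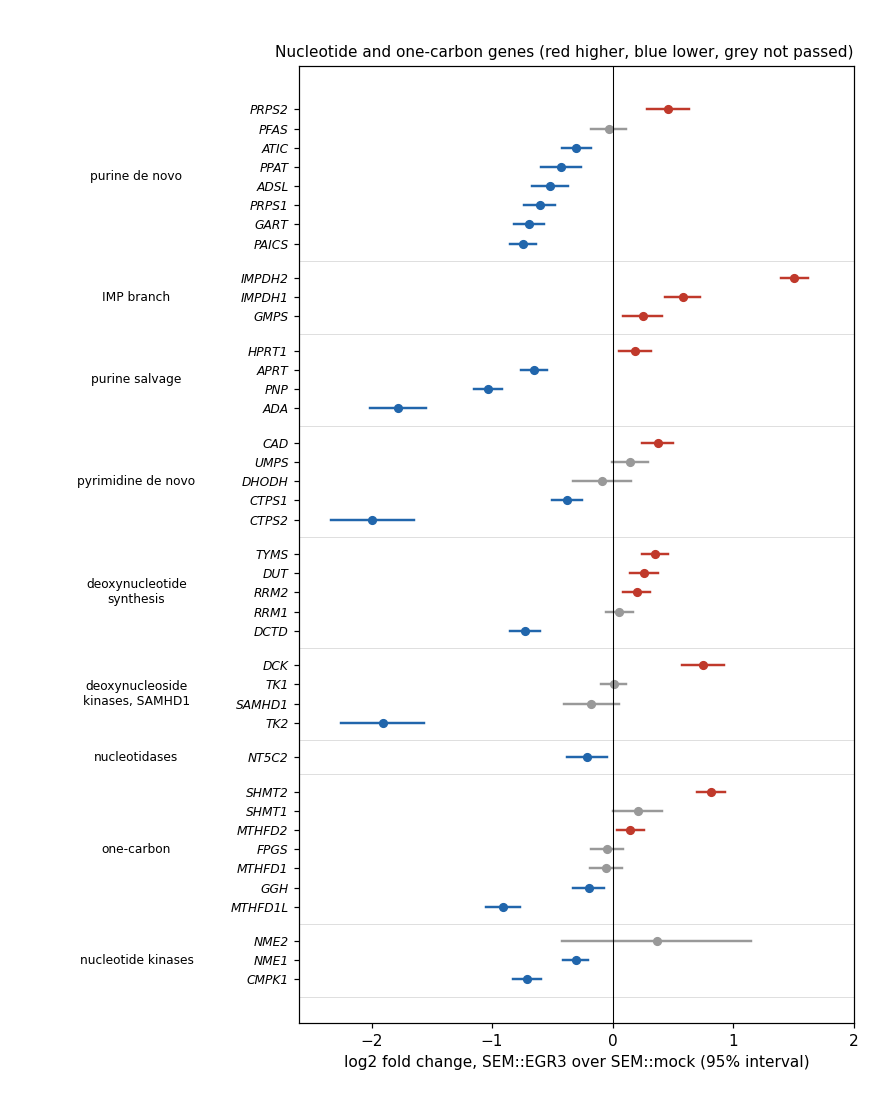
Log2 fold change of 40 members (SEM::EGR3 over SEM::mock, x axis) with its 95% interval, grouped by role, in red where higher, blue where lower and grey where the test was not passed. The purine de novo genes lie mostly left of 0 and the 3 IMP branch genes right of 0, while NT5E, near 0 counts in SEM::mock, is left out.

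The pathway to IMP was lower in SEM::EGR3 at most steps. Of 8 genes, 6 were lower, PRPS2 was higher and PFAS did not pass the test, against 32.0% lower and 36.5% higher of all tested genes. Their summed level was 999 to 1007 CPM in SEM::mock and 685 to 715 CPM in SEM::EGR3, 0.703 times the SEM::mock mean. PAICS, a bifunctional enzyme of the middle steps (chr4:56435741-56464579), was counted 2070, 2123 and 1791 times in SEM::mock and 3308, 1523 and 1998 in the deeper SEM::EGR3 libraries. Scaled for depth this was 357 ± 7.47 CPM against 213 ± 7.84 CPM (SD, n = 3), a log2fc of -0.75 ± 0.05 (SE, adjusted p = 4.38e-12), and the lines did not overlap. GART, which catalyses several steps of the route including the first formyl transfer from folate (chr21:33503931-33543491), was counted 734, 782 and 652 times in SEM::mock and 1262, 562 and 748 in SEM::EGR3. Its level fell from 130 ± 1.57 to 79.9 ± 3.71 CPM (log2fc -0.69, adjusted p = 1.82e-10), again without overlap. ADSL acts both in the pathway to IMP and in the making of AMP. It was counted 518, 536 and 381 times in SEM::mock and 948, 426 and 546 in SEM::EGR3, or 85.3 ± 9.25 and 59.6 ± 1.98 CPM (log2fc -0.52, adjusted p = 8.65e-07). SEM::mock replicate 3 was the lowest of its line for ADSL, yet still above each SEM::EGR3 library.

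PPAT, the committed and feedback-regulated step, fell less, from 62.3 ± 6.36 to 46.0 ± 3.72 CPM (log2fc -0.43, adjusted p = 5.04e-05). ATIC, which closes the purine ring with the second formyl transfer, fell by 0.30 on the log2 scale. PFAS, which acts between GART's steps, was at 54.5 ± 1.82 CPM in SEM::mock and 53.1 ± 1.5 CPM in SEM::EGR3, and its libraries overlapped (log2fc -0.03, adjusted p = 0.695). The genes for phosphoribosyl pyrophosphate synthetase, which makes the ribose donor for purines and pyrimidines alike, moved in opposite directions. PRPS1 (chrX:107628424-107651026) was counted 635, 698 and 614 times in SEM::mock and 1153, 562 and 723 in SEM::EGR3, 117 ± 4.11 against 76.7 ± 2.89 CPM (log2fc -0.61, adjusted p = 3.33e-09). PRPS2 (chrX:12791355-12824222) was counted 161, 188 and 150 times against 605, 318 and 381, 29.8 ± 1.55 against 41.3 ± 2.02 CPM (log2fc 0.46, adjusted p = 3.24e-05). For neither gene did the lines overlap.

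At the IMP branch point the genes toward GMP were all higher in SEM::EGR3. IMPDH2, the main isoform of the rate-limiting enzyme of guanine nucleotide synthesis and the target of mycophenolate, showed the largest increase of any member detected in both lines. Its gene (chr3:49024325-49029408) was counted 1029, 1033 and 877 times in SEM::mock and 7631, 3811 and 4477 in SEM::EGR3. The levels of 176 ± 5.41 and 500.1 ± 11.5 CPM lay far apart, a 2.85-fold difference (log2fc 1.51 ± 0.05, adjusted p = 5.01e-18). IMPDH1, the second isoform (chr7:128392277-128410252), was counted 295, 356 and 273 times in SEM::mock and 1301, 640 and 704 in SEM::EGR3. It rose from 55.1 ± 3.99 to 82.6 ± 4.34 CPM (log2fc 0.58, adjusted p = 8.44e-08), with every SEM::EGR3 library above every SEM::mock library. GMPS, which aminates the IMPDH product to GMP, was at 35.5 ± 1.87 and 42.4 ± 0.87 CPM (log2fc 0.25, adjusted p = 0.00661), and the call was lost without SEM::mock replicate 3 (edgeR adjusted p = 0.0568). The 3 genes summed to 259 to 271 CPM in SEM::mock and 615 to 643 CPM in SEM::EGR3, of which IMPDH2 was the greater share.

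On the other arm of the branch, ADSS encodes the adenylosuccinate synthetase that commits IMP to AMP. In the row listed as ADSS2, matched to ADSS by its gene identifier in GENCODE 29 (chr1:244408494-244452134), counts were 541, 568 and 504 in SEM::mock and 775, 382 and 474 in SEM::EGR3. Levels were 96.5 ± 2.02 and 51.3 ± 1.21 CPM (log2fc -0.91 ± 0.06), with no overlap. Transcripts of the GMP arm were thus higher and those of the first AMP enzyme lower in the same libraries, while ADSL of the AMP arm was also lower.

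Purine salvage was lower in 3 of its 4 listed genes, against 32.0% of all tested genes. Their summed level was 991 to 1012 CPM in SEM::mock and 641 to 674 CPM in SEM::EGR3, of which APRT was the greater share. ADK, the adenosine kinase and no listed member, was higher, at 18.6 ± 0.72 and 35.3 ± 1.08 CPM (log2fc 0.91, edgeR adjusted p = 4.31e-09). ADA (chr20:44619522-44652233) deaminates adenosine and deoxyadenosine, and its inherited loss causes severe combined immunodeficiency. It was counted 212, 224 and 152 times in SEM::mock and 165, 75 and 87 in SEM::EGR3. Its level was 3.44-fold lower in SEM::EGR3, at 10.1 ± 0.51 CPM against 34.9 ± 4.44 CPM (log2fc -1.78 ± 0.11, adjusted p = 5.21e-13). PNP, which acts next and releases the base from inosine and guanosine (chr14:20468954-20477094), was counted 1068, 1077 and 937 times in SEM::mock and 1441, 668 and 788 in SEM::EGR3. This was 184 ± 4.19 against 90.0 ± 2.93 CPM, a 2.04-fold lower level (log2fc -1.03, adjusted p = 3.02e-14), with 37.2% of its last 500 exonic bases opposite exons on the other strand. For both enzymes the lowest SEM::mock library stood above the highest SEM::EGR3 library. APRT, which salvages adenine (chr16:88809339-88811944), was the most abundant member in SEM::mock, with 3787, 3863 and 3407 counts there and 6567, 3272 and 3611 in SEM::EGR3. It fell from 661 ± 12.5 to 421 ± 20.9 CPM (log2fc -0.65, adjusted p = 4.12e-11). HPRT1, the salvage enzyme for hypoxanthine and guanine and the activator of mercaptopurine, differed little, at 124 ± 7.91 and 140.2 ± 10.8 CPM. It passed the test (log2fc 0.19, adjusted p = 0.0136) although the lines overlapped, and the call was lost without SEM::mock replicate 1 (edgeR adjusted p = 0.133), SEM::EGR3 replicate 1 (0.0765) or SEM::EGR3 replicate 3 (0.0584).

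**Figure D2:**
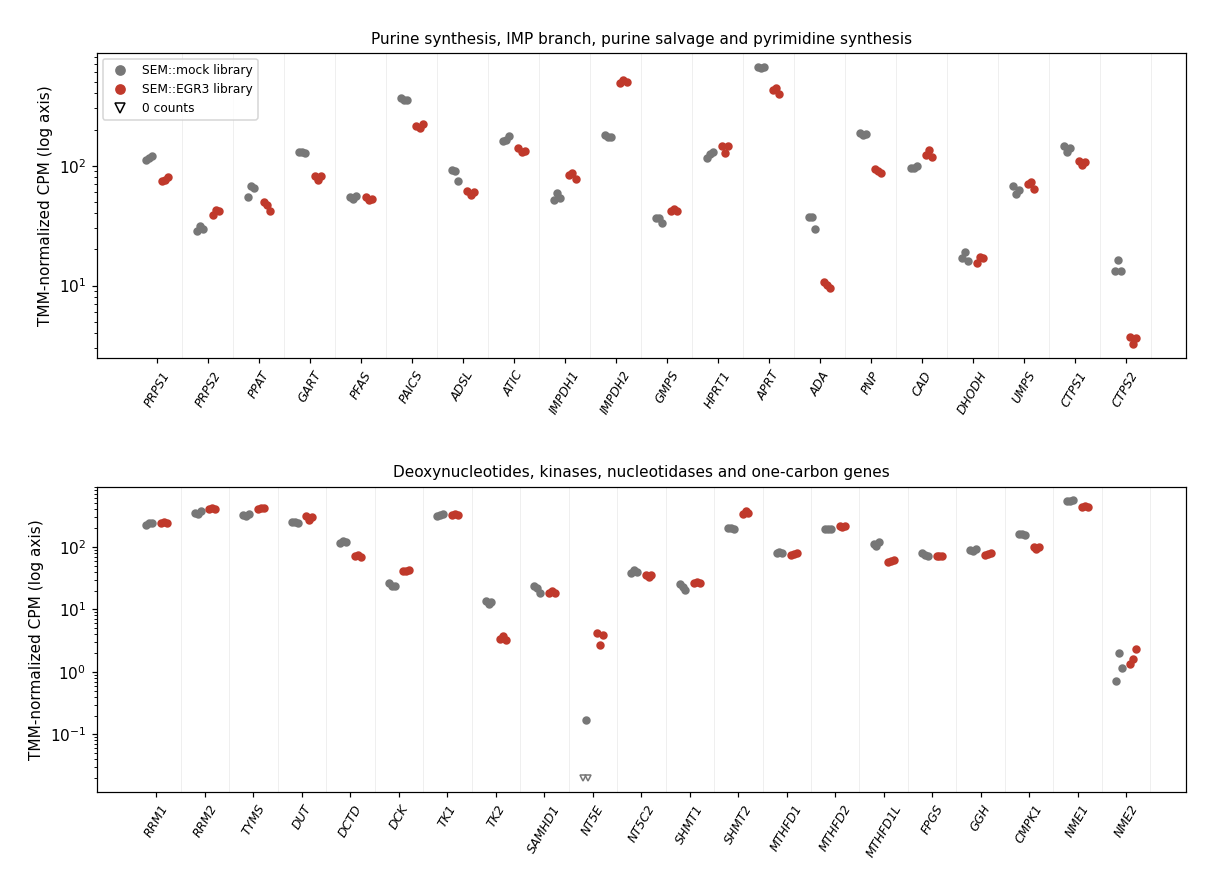
Level of each of the 41 members in each library (y axis, TMM-normalized CPM, log axis; grey SEM::mock, red SEM::EGR3), ordered by role along the x axis. ADA, PNP, CTPS2, TK2 and IMPDH2 show wide gaps between the lines, and the 2 SEM::mock libraries with 0 counts of NT5E are drawn as open triangles at the bottom of the panel.

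In pyrimidine synthesis the first enzyme was higher, the middle enzymes did not pass the test and the CTP synthetases were lower. CAD, the trifunctional enzyme of the first steps, was at 96.6 ± 1.97 CPM in SEM::mock and 125 ± 8.67 CPM in SEM::EGR3 (log2fc 0.38, adjusted p = 9.72e-06). DHODH, the mitochondrial dehydrogenase of the fourth step, had a log2fc of -0.09 (adjusted p = 0.516), and UMPS, which completes UMP, of 0.15 (adjusted p = 0.0733). CTPS1 and CTPS2 both convert UTP to CTP. CTPS1 (chr1:40979335-41012565), the abundant one, was counted 822, 781 and 714 times in SEM::mock and 1705, 752 and 974 in SEM::EGR3. It was 1.30-fold lower, at 139 ± 7.31 and 106 ± 4.49 CPM (log2fc -0.38, adjusted p = 4.76e-06). CTPS2 (chrX:16588003-16712936) was counted 75, 98 and 67 times in SEM::mock and only 58, 24 and 33 in the deeper SEM::EGR3 libraries. At 14.3 ± 1.86 and 3.54 ± 0.27 CPM it was 3.98-fold lower (log2fc -1.99 ± 0.17, adjusted p = 1.24e-10), the largest decrease among the 41 members. The summed level of the 5 genes was 320 to 338 CPM and 311 to 330 CPM, ranges that overlap.

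Among the 5 listed enzymes that supply DNA precursors the differences were small, with 1 exception. RRM2, the regulatory subunit of ribonucleotide reductase, was at 358 ± 19.8 and 411 ± 4.22 CPM (log2fc 0.20, adjusted p = 0.00175). Its large subunit RRM1 stood at 236 ± 11.9 and 246 ± 4.08 CPM (log2fc 0.06, adjusted p = 0.369), with overlapping libraries. TYMS, the thymidylate synthase inhibited by fluorouracil and antifolates, rose from 325 ± 9.05 to 414 ± 6.63 CPM (log2fc 0.35, adjusted p = 1.2e-06). DUT, which removes dUTP and supplies dUMP, had a log2fc of 0.26 (adjusted p = 0.000236). The exception among the listed genes was DCTD, the deaminase that makes dUMP from dCMP (chr4:182890060-182917936). It was counted 655, 735 and 600 times in SEM::mock and 1111, 557 and 624 in SEM::EGR3, 119 ± 3.82 against 71.9 ± 3.04 CPM (log2fc -0.73, adjusted p = 1.24e-10), and the lines did not overlap. All of the last 500 exonic bases of TYMS lie opposite exons of a gene on the other strand, and whether strand was used in counting is not given in the sources used here.

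Among the deoxynucleoside kinases DCK was higher, TK2 was lower and TK1 did not pass the test. DCK, the cytosolic kinase that activates cytarabine and other nucleoside drugs (chr4:70992538-71030914), was counted 152, 144 and 123 times in SEM::mock and 649, 310 and 388 in SEM::EGR3. It rose 1.68-fold, from 25.0 ± 1.58 to 42.2 ± 0.62 CPM (log2fc 0.75 ± 0.08, adjusted p = 2.63e-08). TK2, the mitochondrial thymidine kinase (chr16:66508003-66552544), was counted 76, 73 and 66 times against 52, 28 and 29. This was 12.9 ± 0.61 against 3.44 ± 0.29 CPM, 3.75-fold lower in SEM::EGR3 (log2fc -1.91 ± 0.17, adjusted p = 2.61e-10). For both kinases the lines were clearly separated. TK1, the S phase thymidine kinase of the cytosol, was at 325 ± 8.33 and 328 ± 3.30 CPM (log2fc 0.01, adjusted p = 0.861). DGUOK, the mitochondrial deoxyguanosine kinase and no listed member, was at 129 ± 2.15 and 126 ± 1.82 CPM, with overlapping libraries (log2fc -0.03, adjusted p = 0.621). SAMHD1, the hydrolase that degrades dNTPs and inactivates cytarabine triphosphate, had a log2fc of -0.18 (adjusted p = 0.157).

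NT5E, the ectonucleotidase CD73 that releases adenosine at the cell surface (chr6:85449584-85495791), was nearly undetected in SEM::mock. It was counted 0, 1 and 0 times in SEM::mock and 65, 20 and 35 in SEM::EGR3. With 1 count in all of SEM::mock, the pooled ratio of 62.8 had a 95% counting interval of 11.1 to 2500 (exact Clopper-Pearson). Since it entered the test only through the line where it is high, its p is not given. The SEM::EGR3 libraries were at 3.59 ± 0.79 CPM. NT5C2, the cytosolic nucleotidase in which relapse mutations confer thiopurine resistance, was at 40.3 ± 2.20 and 34.8 ± 1.31 CPM (log2fc -0.21, adjusted p = 0.0225). Its call was lost with DESeq2 (adjusted p = 0.0825), in 3 other settings, and without SEM::mock replicate 2 (edgeR adjusted p = 0.0916) or SEM::EGR3 replicate 2 (0.0626), and all of its last 500 exonic bases lie opposite exons on the other strand.

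In one-carbon metabolism the mitochondrial serine enzyme was higher and the mitochondrial formate enzyme lower. SHMT2 (chr12:57229327-57234935), which takes a carbon unit from serine in mitochondria, was counted 1144, 1192 and 1003 times in SEM::mock and 5156, 2762 and 3174 in SEM::EGR3. It rose 1.76-fold, from 200 ± 2.73 to 352 ± 19.8 CPM (log2fc 0.82 ± 0.06, adjusted p = 2.16e-12). Every SEM::EGR3 library exceeded every SEM::mock library. SHMT1, its cytosolic counterpart (chr17:18327860-18363563), was counted 146, 136 and 105 times against 413, 205 and 236, or 23.1 ± 2.61 and 26.8 ± 0.77 CPM. The lines did not overlap, but the test was not passed (log2fc 0.21, adjusted p = 0.0626). Of the last 500 exonic bases of SHMT1, 39.2% lie opposite exons on the other strand. MTHFD2, the mitochondrial dehydrogenase and cyclohydrolase that follows SHMT2, was only slightly higher (193 ± 1.96 and 214 ± 6.34 CPM, log2fc 0.15, adjusted p = 0.0169), a call lost without each library but SEM::EGR3 replicate 2 (edgeR adjusted p of up to 0.0890) and with the replicate block (0.0575). All of its last 500 exonic bases lie opposite exons on the other strand.

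MTHFD1L, which releases formate from mitochondria (chr6:150865549-151101887), was counted 633, 613 and 620 times in SEM::mock and 887, 450 and 560 in SEM::EGR3. It fell from 112 ± 9.46 to 59.9 ± 2.42 CPM, 1.87-fold lower (log2fc -0.91 ± 0.07, adjusted p = 1.59e-11). MTHFD1, the trifunctional cytosolic enzyme that takes up that formate (chr14:64388031-64463457), was counted 446, 490 and 405 times against 1162, 568 and 727. At 80.1 ± 1.73 and 77.3 ± 2.78 CPM its libraries overlapped (log2fc -0.05, adjusted p = 0.449). FPGS, which adds the glutamate tail that retains folates and methotrexate in cells, had a log2fc of -0.05 (adjusted p = 0.506). GGH, which removes that tail, was at 88.8 ± 3.20 and 77.5 ± 3.01 CPM (log2fc -0.20, adjusted p = 0.00781), a call lost without normalization factors or with the deposited library totals.

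Of the 3 listed kinases that raise nucleoside monophosphates and diphosphates to triphosphates, CMPK1 and NME1 were lower and NME2 did not pass the test. CMPK1, which phosphorylates CMP and UMP (chr1:47333797-47378839), was counted 896, 953 and 805 times in SEM::mock and 1548, 687 and 888 in SEM::EGR3. It was 1.63-fold lower in SEM::EGR3, at 159 ± 0.91 and 96.8 ± 3.82 CPM (log2fc -0.71, adjusted p = 5.13e-11). NME1, a nucleoside diphosphate kinase (chr17:51153536-51162428), was counted 3098, 3191 and 2826 times against 6761, 3354 and 3943. Its level was 545 ± 10.0 and 441 ± 9.15 CPM (log2fc -0.31, adjusted p = 6.23e-06), and neither kinase overlapped between the lines. The neighbouring NME2 (chr17:51165435-51171747) was counted only 4, 12 and 6 times in SEM::mock and 21, 12 and 21 in SEM::EGR3 (log2fc 0.37, adjusted p = 0.402). Its level is uncertain, since 74.2% of its last 500 exonic bases also belong to exons of the NME1-NME2 readthrough gene on the same strand, whose row is not used here.

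**Figure D3:**
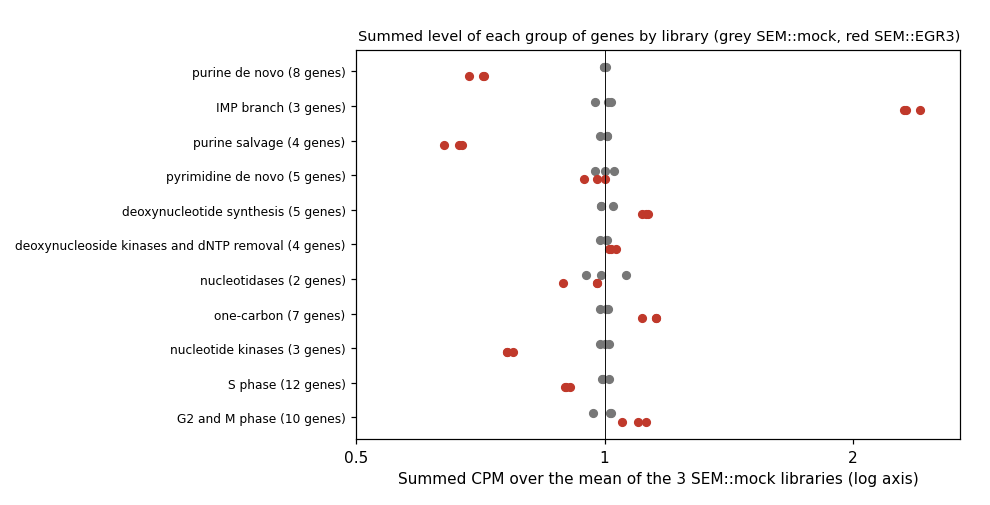
Summed CPM of each role in each library over the mean of the 3 SEM::mock libraries (x axis, log axis; grey SEM::mock, red SEM::EGR3), with S phase and G2 and M phase markers for comparison. The IMP branch lies at 2.35 times the SEM::mock mean, purine de novo synthesis at 0.703 and purine salvage at 0.659.

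Since these pathways supply replicating cells, the same libraries were read for cell cycle markers. Of 12 S phase markers, SEM::EGR3 had 3 upregulated and 6 downregulated, with a median log2fc of -0.13 and a summed level of 2637 to 2692 CPM in SEM::mock and 2379 to 2416 CPM in SEM::EGR3. Of 10 markers of G2 and M phase, 6 were higher and 2 lower, with a median log2fc of 0.14. For these lists and the regulators below, the shares over all tested genes were 36.5% higher and 32.0% lower. The S phase sum was 0.900 times and the G2 and M phase sum 1.09 times the SEM::mock mean. Over the 9 roles of the members the same ratio ran from 0.659 (purine salvage) to 2.35 (the IMP branch, mostly IMPDH2), with pyrimidine synthesis at 0.975, the deoxynucleoside kinases with SAMHD1 at 1.02 and the nucleotidases at 0.949. The part of the cell cycle in these differences was not tested. MYC, a known activator of purine and pyrimidine synthesis genes, fell by 0.79 on the log2 scale (adjusted p = 1.86e-11). ATF4, which activates serine and mitochondrial folate genes under amino acid stress, had a log2fc of 0.24 (adjusted p = 0.00125), and E2F1, which drives S phase genes, of 0.57 (adjusted p = 8.82e-07). Of the 9 regulators listed, 8 were tested, and MYC and E2F2 (log2fc -0.31) were the 2 lower. The 6 higher were ATF4, E2F1, E2F3 (log2fc 0.42), TFDP1 (0.28), USF1 (0.73) and USF2 (0.71).

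Several steps are encoded by a pair of genes, and the balance within the pair was followed as the log2 ratio of counts in each library. PRPS1 exceeded PRPS2 by 3.90-fold in SEM::mock and 1.85-fold in SEM::EGR3. IMPDH2 exceeded IMPDH1 by 3.19-fold in SEM::mock and 6.05-fold in SEM::EGR3, so that the dominant isoform gained further weight although both genes rose. The dominant gene also gained weight for CTP synthetase, where CTPS1 exceeded CTPS2 by 9.71-fold and 29.6-fold although both genes fell. SHMT2 exceeded SHMT1 by 8.66-fold and 13.1-fold, a ratio subject to the exons opposite SHMT1. The related enzymes MTHFD1 and MTHFD1L changed order, with MTHFD1L the higher in each SEM::mock library (1.40-fold) and MTHFD1 the higher in each SEM::EGR3 library (1.29-fold). In these 5 pairs the ratios of the lines did not overlap, which gives an exact permutation p = 0.1 (two-sided), the smallest that 3 against 3 libraries allow. Of all tested genes 36.5% were higher and 32.0% lower, and how often other pairs of genes separate in this way was not examined. Adjusted over the 6 pairs it was 0.12. For NME1 and NME2, the sixth pair, the exact permutation p = 0.3 and the ratio is subject to the shared exons.

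**Figure D4:**
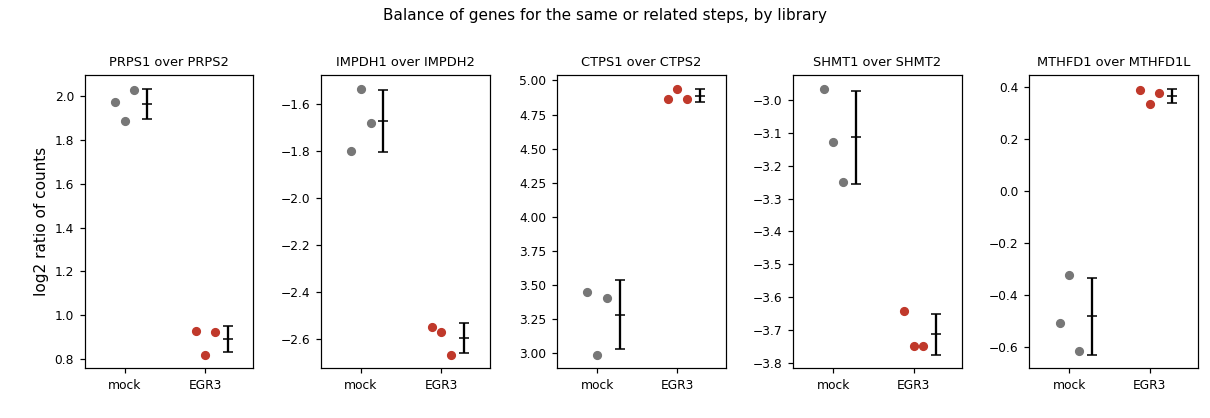
Log2 ratio of counts (y axis, a separate scale in each panel) for 5 pairs of genes in each library, with the mean and SD of 3 libraries beside the points (grey SEM::mock, red SEM::EGR3). The ratios of the lines do not overlap in any panel, and for MTHFD1 over MTHFD1L they lie on either side of 0.

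Beyond the listed members, 74 further genes of folate, serine, purine and pyrimidine metabolism were present in the table and 62 had enough counts to be tested. Of these, 21 were higher (33.9%), 29 lower (46.8%) and 12 did not pass, against 36.5% and 32.0% of all tested genes, with a median log2fc of -0.17. Those higher numbered 12 when 10 counts were required in every library, a filter that leaves out genes near 0 in SEM::mock such as AK3, AK5, GLDC, MTAP, FTCD and DPYD. None of 10 further nucleotidases and nucleoside diphosphate kinases was higher at an adjusted p under 0.05 and 7 were lower, among them NME4 (log2fc -1.23) and NT5C3B (log2fc -1.11). Their summed level was 504 to 534 CPM in SEM::mock and 278 to 289 CPM in SEM::EGR3.

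Serine synthesis lay on the higher side together with SHMT2. PSAT1, the transaminase of that pathway, rose from 31.6 ± 1.87 to 96.5 ± 10.4 CPM (log2fc 1.62, adjusted p = 1.34e-14), and PHGDH, its first enzyme, from 136 ± 5.42 to 219 ± 5.21 CPM (log2fc 0.69). GLDC, the decarboxylase of the glycine cleavage system, was at 0 in all SEM::mock libraries and was counted 87, 44 and 60 times in SEM::EGR3, at least 11.2-fold higher against a floor of 3 counts per library. In the folate cycle ALDH1L2, the mitochondrial formyl folate dehydrogenase, was counted 39, 46 and 28 times in SEM::mock and 14, 13 and 14 in SEM::EGR3 (log2fc -2.37). Its SEM::EGR3 counts alone would not have passed the filter, so its p is not given. FTCD, a folate enzyme of histidine breakdown, was counted 1, 2 and 3 times in SEM::mock and 110, 76 and 62 times in SEM::EGR3, a pooled ratio of 21.6 (95% counting interval 9.80 to 59.5). DHFR2, a mitochondrial relative of dihydrofolate reductase, was also higher (log2fc 1.79, adjusted p = 2.08e-07).

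Several genes of purine interconversion were likewise close to 0 in SEM::mock. AK3 and AK5, adenylate kinase family members, were at 0 in all SEM::mock libraries. In SEM::EGR3 AK3 was counted 350, 156 and 209 times, at least 41.1-fold higher, and AK5 158, 70 and 101 times, at least 19.0-fold higher. MTAP, which returns the methylthioadenosine of polyamine synthesis to adenine and so feeds APRT, was counted 0, 0 and 1 times against 380, 182 and 214, a pooled ratio of 406 (95% counting interval 72.7 to 16060). GMPR, which turns GMP back into IMP, was lower (98.2 ± 9.99 and 29.5 ± 2.39 CPM, log2fc -1.72, adjusted p = 1.36e-15). AMPD3, an AMP deaminase of erythroid cells, was higher (12.1 ± 1.13 and 36.6 ± 2.03 CPM, log2fc 1.59). Of the nucleoside transporters, SLC29A2 at the cell surface fell from 40.5 ± 4.06 to 10.3 ± 1.15 CPM (log2fc -1.99, adjusted p = 3.19e-14), and SLC29A3 of lysosomes rose from 2.03 ± 0.39 to 10.5 ± 1.86 CPM (log2fc 2.35, adjusted p = 1.99e-09). CMPK2, a mitochondrial UMP and CMP kinase known as interferon-induced, fell from 114 ± 4.35 to 36.8 ± 1.87 CPM (log2fc -1.63, adjusted p = 1.06e-16). Of the pyrimidine breakdown genes, DPYD, which inactivates uracil and fluorouracil, was counted 1, 1 and 0 times against 29, 15 and 15 (pooled ratio 15.4, 95% counting interval 4.09 to 130.4). UPB1 of the last step was counted 7, 4 and 7 times against 56, 15 and 40 (log2fc 1.67). Like NT5E, UPB1 entered the test only through its SEM::EGR3 counts, so its p is not given. In all, 17 of the 74 genes had no SEM::mock library above 3 counts, and 9 no SEM::EGR3 library.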

How the data were processed

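RNA of 3 biological replicates per line was sequenced by MACE-Seq. Per the labels, the submitters' processing notes name bcl2fastq, Bowtie2, HTSeq and GRCh38. Versions, strand, multimapping and molecular-identifier settings are not given in the sources used here. The authors deposited unnormalized counts per gene. Their deposited columns named TPM hold CPM, counts over a library total, and served only to recover those totals (7172067 to 20310325). The 35410 genes of the table held 73.6% to 75.8% of each total. Of the per-sample columns, 6 were not used, and the authors' own fold changes and p-values were set aside. The headers spell the overexpressed gene ERG3 and were read as SEM::EGR3, since the titles name no other overexpression line.

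Counts were filtered with filterByExpr, scaled with TMM and tested with edgeR 4.0.16 (R 4.3.3), two-sided, Benjamini-Hochberg adjusted over 15465 genes. DESeq2 1.42.0 served as an alternative. Ratios of gene pairs used a prior count of 0.5. The floor was 3 counts per library, and floors and intervals cover counting error only. Members with an adjusted p under 0.05 and a log2fc of at least 0.5 in size, both genes of each pair and members failing the filter were described by library. Of the further pathway genes, the 15 largest changes of at least 1 in log2fc were named, with MTAP, fixed by name, among them. DGUOK, ADK, RRM2B, PHGDH, NME4 and NT5C3B fall outside that rule and were chosen after their values were seen. Members and lists were chosen with earlier results of these data known. On simulated counts of 15176 genes for this comparison, 36 of 49 genes changed by a log2fc of 0.5 and 41 of 47 changed by 1 were recovered, with 15 false calls among 14983. Those 14983 genes were unchanged by design and the changes were balanced in direction. The simulation therefore cannot test the normalization where most genes differ, as in these data. Replicate libraries differed by more than counting noise (chi-square per degree of freedom 1.64 to 2.89), and p-values measure the spread between these cultures of 1 line each. Genes NT5C1A, NT5C1B, DHFRL1 and ELANE were not analysed here. ADSSL1, read under ADSS1, did not pass the test (log2fc -0.17).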

Additional observations from a re-analysis of the deposited data

How the results depend on the processing

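The member counts of 13 higher and 18 lower ranged from 11 to 16 and from 16 to 19 over the other normalizations, filters, DESeq2, the replicate block and the fits without 1 library (11 to 13 and 17 to 19 in the last). At a log2fc of at least 1 in size they were 2 and 4 for members, 12 and 9 for the other pathway genes, and 2581 and 1315 over all genes. The other pathway genes called higher also numbered 12 when 10 counts were required in every library, which drops genes near 0 in SEM::mock. The members' median log2fc of -0.05 lay close to 0: it turned to 0.0230 without normalization factors and 0.0352 with the deposited totals, was -0.0396 with upper-quartile factors and -0.0362 with the filter of 10 counts, and ran from -0.0931 to -0.0477 without 1 library. Reversals of single members were limited to 6 genes that did not pass in the main test: PFAS (0.0456 without factors, 0.0572 with deposited totals, 0.0185 with the filter of 10 counts), FPGS (0.0281, 0.0399 and 0.00120), MTHFD1 (0.0230 without factors, 0.0352 with deposited totals), DHODH (0.00305 with deposited totals), and RRM1 (-0.00325 to 0.0677) and TK1 (-0.0279 to 0.0208), lowest without SEM::mock replicate 1. Calls of NT5C2, GGH, HPRT1, MTHFD2 and GMPS were lost in at least 1 setting, and UMPS, SHMT1, RRM1 and SAMHD1 gained one; the cause was not tested. Replicate numbers did not pair the libraries (same-number correlations of -0.105, -0.0635 and -0.034), and with the replicate block 12 members were higher and 18 lower, MTHFD2 losing its call. CTPS2, TK2 and NT5E had under 100 counts in each library of both lines, which limits the precision of their folds.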

Other observations

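GLDC (chr9:6532464-6645783), AK3 (chr9:4709559-4742043) and MTAP (chr9:21802543-21937651), 3 of the pathway genes at or near 0 counts in SEM::mock, lie on the same arm of chromosome 9 (GRCh38), and their interval was examined after these counts were seen. Between AK3 and MTAP 40 genes had at least 10 counts in each SEM::EGR3 library, and 6 of them (15%) were at 3 counts or fewer in each SEM::mock library, against 6.19% of 15421 such genes in the whole table. GLDC, AK3 and MTAP, which set the interval, are 3 of those 6, and of the other 37 genes 3 (8.11%) were at that level. In the same interval 33 genes had at least 10 counts in each SEM::mock library, so the interval as a whole was not silent there.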
